A study of Triticum aestivum with 48 samples.

Results

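Transcripts of 6 wheat genes that act in or beside protein synthesis were followed in seedlings grown with little or ample nitrate: TEF1, eIF4E-1, NCBP, eIF-2-beta, RPS29 and TCTP. The genes were chosen by name, and every probe set that the array annotation pairs with them by symbol or synonym was taken. This gave 8 of the 61290 probe sets on the array: 2 each for TEF1 and RPS29 and 1 for each of the other genes. Among the probe sets that the annotation pairs with exactly 1 gene there are 1273, for 771 genes.

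Translation of an mRNA begins when an initiation factor binds the cap at its 5′ end and the small ribosomal subunit is loaded with the initiator tRNA. Elongation factors then bring each amino acid to the ribosome on its tRNA. Ribosomes and their proteins hold a large share of the nitrogen of a growing plant cell. eIF4E-1 is a cap-binding initiation factor, and NCBP is named as a cap-binding protein. eIF-2-beta is a subunit of the factor that carries the initiator tRNA. TEF1 is an elongation factor of the eEF1A kind, which delivers aminoacyl-tRNA to the ribosome. RPS29 is a protein of the small ribosomal subunit. TCTP, the translationally controlled tumour protein, is a conserved protein linked to growth.

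The samples were roots and shoots of wheat (Triticum aestivum) seedlings 15 days old, grown in vermiculite and perlite, of the genotypes K307, K9107, HD2967 and Chotilarma (CL). Stressed seedlings received 0.08 mM calcium nitrate as nitrogen source and control seedlings 8 mM. Each of the 16 groups of genotype, tissue and nitrogen (N) supply held 3 arrays, 48 in all, hybridized with biotin-labelled RNA on the Affymetrix Wheat Genome Array. The design text speaks of 3 sets of pots per genotype, and how pots, plants and replicate numbers correspond is not given in the sources used here, so p-values measure the spread between these arrays only.

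The deposited values are log2 signals normalized by the authors. The array medians fell into 4 separate ranges of 12 arrays each, called normalization sets here. The CL arrays alone made up set 1, with medians of 1.14 to 1.26, while K307, K9107 and HD2967 arrays shared the other sets, with medians of 4.33 to 5.39. The scale of the CL arrays and the CL genotype therefore cannot be told apart, CL levels were not set against those of other genotypes, and CL differences were not read as ordinary folds. Values of K307, K9107 and HD2967 are given after subtraction of the fitted offset of their set, and CL values as deposited. The tissue field of CL stressed root array 1 reads shoot, and the description of HD2967 stressed shoot array 1 names a root, while their other labels name the opposite tissue. All 24 root arrays and all 24 shoot arrays, these included, fell on their own side of the first principal component, which held 53.1% of the variance within sets.

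A probe set whose identifier ends in x_at can share probes with near-identical transcripts. That holds for 5 of the 8 probe sets, those of TEF1, RPS29 and TCTP, and the homoeologous copies of a gene in hexaploid wheat were not told apart. Levels were not compared between probe sets. For TEF1 and RPS29 the probe set with the higher mean, called the brighter, was read first and the dimmer one second. The annotation's identifiers are LOC543386 for TEF1, LOC543485 for eIF4E-1, LOC100049030 for NCBP, LOC543269 for eIF-2-beta, LOC606342 for RPS29 and LOC542949 for TCTP. In whole roots and shoots, fewer cells of a type and less RNA per cell cannot be told apart.

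The first question was how the transcripts responded to low N in roots. Averaged over the 4 genotypes, none of the 8 probe sets passed the test, in which 6.57% of all probe sets were called. The test was limma with the normalization set as a term, p-values were adjusted by Benjamini-Hochberg across the 61179 probe sets, and an adjusted p under 0.05 was called. At an unadjusted p under 0.05 limma gave 4 of the 8. The share of all probe sets at that unadjusted threshold was not counted, here or below. Such counts therefore cannot be read as an excess. The dimmer TEF1 probe set lay at 0.33 ± 0.11 (log2, stressed minus control ± SE, adjusted p = 0.0716) and the brighter RPS29 probe set at -0.48 ± 0.18 (adjusted p = 0.127). eIF4E-1 lay at 0.21 ± 0.09, eIF-2-beta at 0.18 ± 0.07 and NCBP at 0.15 ± 0.09. TEF1 passed without CL root control 2 or 3 (adjusted p down to 0.0145), and RPS29 without CL root stressed 1 (adjusted p = 0.0302). The median of the 8 differences was 0.12, and that of all probe sets was 0.00480.

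The RPS29 average joined estimates of opposite sign in CL and in the other genotypes. In K307 roots the brighter RPS29 probe set read 5.98, 6.76 and 6.48 in stressed arrays, against 7.22, 7.53 and 6.81 in controls. In K9107 roots it read 6.72, 6.38 and 6.65 in stressed arrays, against 7.21, 7.38 and 7.66 in controls. In HD2967 roots it read 7.59, 7.67 and 7.08 in stressed arrays, against 8.20, 8.34 and 9.28 in controls. Every stressed array of these genotypes lay below every control array of its genotype, so the groups did not overlap in K307, K9107 or HD2967. Such separation was common: it held for 20.1% of all probe sets in K307 roots, 23.6% in K9107 roots and 32.1% in HD2967 roots. CL roots, where 12.1% of all probe sets were so separated, had 7.00, 5.39 and 6.31 in stressed arrays against 5.75, 5.33 and 5.19 in controls, and there the groups overlapped.

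**Figure D1:**
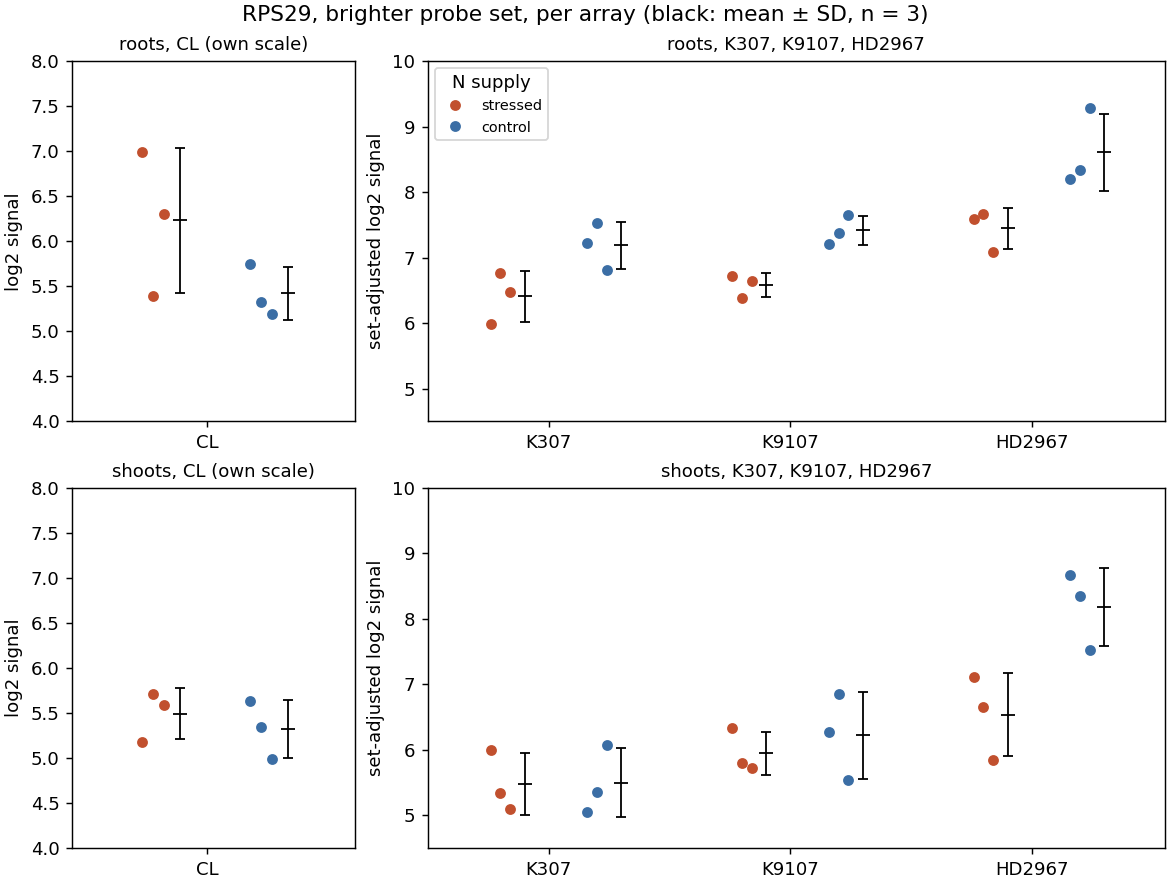
Log2 signal of the brighter RPS29 probe set in each array, by genotype and N supply, in roots (top) and shoots (bottom). Points are arrays and black bars the mean ± SD of 3 arrays, with CL on its own scale beside the set-adjusted values of K307, K9107 and HD2967. In roots the stressed arrays of K307, K9107 and HD2967 all lie below their controls, from 5.98 to 7.67 against 6.81 to 9.28 over the 3 genotypes.

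The RPS29 responses in roots were 0.81 ± 0.34 in CL, -0.72 ± 0.35 in K307, -0.83 ± 0.34 in K9107 and -1.17 ± 0.39 in HD2967. None passed by itself, with adjusted p of 0.301, 0.352, 0.499 and 0.122, where 2.04%, 1.99%, 0.907% and 3.36% of all probe sets were called in roots of CL, K307, K9107 and HD2967. The CL response was 0.43 without CL root stressed 1, and 1.23 without CL root stressed 2, where it passed (adjusted p = 0.0303). The HD2967 response was -0.73 without HD2967 root stressed 3. In other fits, the K9107 response passed from its 6 arrays alone (adjusted p = 0.0434). There 1603 of all 61179 probe sets were called, against 555 in the main fit. The HD2967 response passed without the CL arrays (adjusted p = 0.0420), where 6.96% of all probe sets were called. That HD2967 fit was an added one. Within single normalization sets, which need no offset, the RPS29 difference was -0.58 and -0.47 in K307, -0.73 and -0.88 in K9107 and -1.52 in HD2967.

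Fitted without the CL arrays, an alternative to the average over 4 genotypes, the mean response of K307, K9107 and HD2967 passed for 2 of the 8 probe sets, where 10.9% of all probe sets were called. It was taken up as a result of its own after this was seen. The brighter RPS29 probe set fell by 0.91 on the log2 scale (SE 0.17, adjusted p = 0.00337). The dimmer TEF1 probe set rose by 0.29 ± 0.06 (adjusted p = 0.00985). Both kept their calls in all 18 fits with 1 array left out, with adjusted p up to 0.0235 for RPS29 and 0.0364 for TEF1. With a replicate block it was 0.0240 for RPS29 and 0.0839 for TEF1, so that the TEF1 call was lost. With no set term the adjusted p was 0.0542 for RPS29 and 0.899 for TEF1, and both calls were lost. The fit with CL shared 1 spread over all genotypes. Its residual SD in roots was 0.26 for this TEF1 probe set and 0.46 for RPS29, against 0.09 and 0.39 without CL. The median over all probe sets was 0.23 with CL and 0.19 without.

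The dimmer TEF1 probe set read higher in stressed than in control roots on average in all 4 genotypes. In K307 roots it read 12.12, 12.16 and 12.17 in stressed arrays, against 12.03, 11.79 and 11.70 in controls. In K9107 roots it read 12.22, 12.18 and 12.14 in stressed arrays, against 12.04, 12.01 and 11.99 in controls. In HD2967 roots it read 12.20, 12.12 and 12.01 in stressed arrays, against 11.72, 11.74 and 11.86 in controls. The groups did not overlap in any of these genotypes, in whose roots 20.1%, 23.6% and 32.1% of all probe sets were so separated. In CL roots the groups overlapped, with 8.55, 8.77 and 8.55 in stressed arrays and 8.39, 7.45 and 8.66 in controls. Within normalization sets this probe set was higher in stressed arrays in 11 of 11 comparisons over roots and shoots, by 0.05 to 0.46. HD2967 shoots, whose N supplies share no set, are not among the 11, and their fitted difference was -0.06 ± 0.18. The brighter TEF1 probe set was higher in stressed arrays in 10 of 11 such comparisons. How many of all probe sets had 1 direction in all 11 was not counted.

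The other probe sets of TEF1 and RPS29 did not pass in the average of these genotypes. The brighter TEF1 probe set averaged 0.07 ± 0.06 in roots of K307, K9107 and HD2967 (adjusted p = 0.521), and the dimmer RPS29 probe set -0.05 ± 0.07 (adjusted p = 0.753). Differences between the probe sets of a gene were not tested. The array also carries control probe sets for EF1a, the same kind of factor as TEF1. Their mean root responses in these genotypes were 0.12 ± 0.07, 0.20 ± 0.12 and 0.37 ± 0.08.

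The initiation factors and TCTP did not pass in this average. NCBP lay at 0.18 ± 0.07 (adjusted p = 0.102), eIF-2-beta at 0.17 ± 0.06 (adjusted p = 0.102) and eIF4E-1 at 0.11 ± 0.06 (adjusted p = 0.298). TCTP lay at -0.03 ± 0.06 (adjusted p = 0.868). Without K307 root stressed 1, NCBP and eIF-2-beta passed (adjusted p = 0.0326 and 0.0400). NCBP and eIF-2-beta had positive estimates in roots of all 4 genotypes, from 0.03 to 0.31 and from 0.02 to 0.27. The lowest, 0.03 ± 0.16 for NCBP in CL and 0.02 ± 0.14 for eIF-2-beta in K9107, were smaller than their SE. How many of all probe sets had positive estimates in all 4 was not counted.

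The RPS29 response of CL roots was set against the mean of the other genotypes, again after the values had been seen. The brighter RPS29 probe set was the 1 of the 8 called, where 1.37% of all probe sets were called: CL lay 1.72 ± 0.40 above the mean of K307, K9107 and HD2967 (adjusted p = 0.0359). The call was lost in 11 of 24 fits with 1 array left out, namely CL root stressed 1 or 3, CL root control 2 or 3, K307 root control 2, K9107 root stressed 1 or 2, K9107 root control 2 or 3 and HD2967 root stressed 1 or 3. The adjusted p reached 0.111, without CL root stressed 1. With a replicate block it was 0.0844. Since CL has a scale of its own, the size of this difference is uncertain. The test over all differences between the 4 genotypes' root responses, where 1.46% of all probe sets were called, passed for none of the 8, with 1 at an unadjusted p under 0.05 (RPS29 adjusted p = 0.112, and 0.0129 without CL root stressed 2). In shoots that test passed for none either, where 0.0588% of all probe sets were called, with 4 at an unadjusted p under 0.05.

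In shoots, averaged over the 4 genotypes, none of the 8 probe sets passed, where 0.842% of all probe sets were called, and limma gave 4 of the 8 at an unadjusted p under 0.05. Estimates ran from -0.45 for the brighter RPS29 probe set to 0.30 for eIF-2-beta. Without the CL arrays none passed either, where 0.332% of all probe sets were called, with 2 at an unadjusted p under 0.05. RPS29 read 7.11, 6.65 and 5.85 in stressed HD2967 shoots, against 8.67, 8.35 and 7.52 in controls. Although these did not overlap, its difference of -1.59 ± 0.54 did not pass (adjusted p = 0.877). The stressed and control HD2967 shoot arrays share no normalization set, so that difference rests on offsets estimated from the other arrays.

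Over single genotypes and tissues, 2 of 64 responses passed, both in CL shoots, where 3.36% of all probe sets were called. In shoots of K307, K9107 and HD2967, 0.0458%, 0.105% and 0.036% were called, and limma gave 0, 0 and 2 of the 8 at an unadjusted p under 0.05. Stressed and control arrays did not overlap in 24 of the 64, where that share of all probe sets in shoots was 17.6% in K307, 15.8% in K9107 and 18.8% in HD2967. TEF1 by its brighter probe set read 9.86, 10.03 and 9.65 in stressed CL shoots, against 8.96, 9.01 and 9.54 in controls. It rose by 0.68 ± 0.16 (adjusted p = 0.0254). The dimmer TEF1 probe set lay at 0.31 ± 0.13 in CL shoots and did not pass (adjusted p = 0.244). The EF1a control probe sets lay at -0.17 ± 0.15, 0.02 ± 0.19 and -0.07 ± 0.19 there. Whether these differed from the brighter TEF1 probe set was not tested. TCTP read 10.99, 11.24 and 10.95 in stressed CL shoots, against 10.63, 10.46 and 10.69 in controls. It rose by 0.47 ± 0.10 (adjusted p = 0.0203). For the brighter TEF1 probe set, TCTP, eIF4E-1 and NCBP, every stressed array lay above every control array. Such separation, in one direction or the other, held for 19.2% of all probe sets in CL shoots.

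The other estimates in CL shoots were positive too. All 8 lay above 0, as did 43.1% of all probe sets. NCBP lay at 0.90 ± 0.26 (adjusted p = 0.0646), with 4.56, 4.76 and 4.69 in stressed arrays against 3.11, 3.81 and 4.39 in controls. eIF4E-1 lay at 0.70 ± 0.20 (adjusted p = 0.0720), with 5.12, 5.63 and 5.35 in stressed arrays against 4.04, 4.93 and 5.04 in controls. Control array 1 was the lowest of the 6 for both, and for eIF-2-beta it read 3.45, against 5.61 and 5.41 in the other controls and 5.63, 5.97 and 5.52 in stressed arrays. eIF4E-1 passed without CL shoot control 2 or 3, and NCBP without CL shoot control 3 or K9107 shoot control 2 or 3. NCBP also passed with the set as a random block (adjusted p = 0.0431) and among bright probe sets only (0.0427). The eIF-2-beta difference of 0.89 ± 0.37 did not pass (adjusted p = 0.223). The dimmer RPS29 probe set lay between 0.72 below and 0.62 above the array median in CL, at the low end of that scale, where the size of its CL differences is uncertain.

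**Figure D2:**
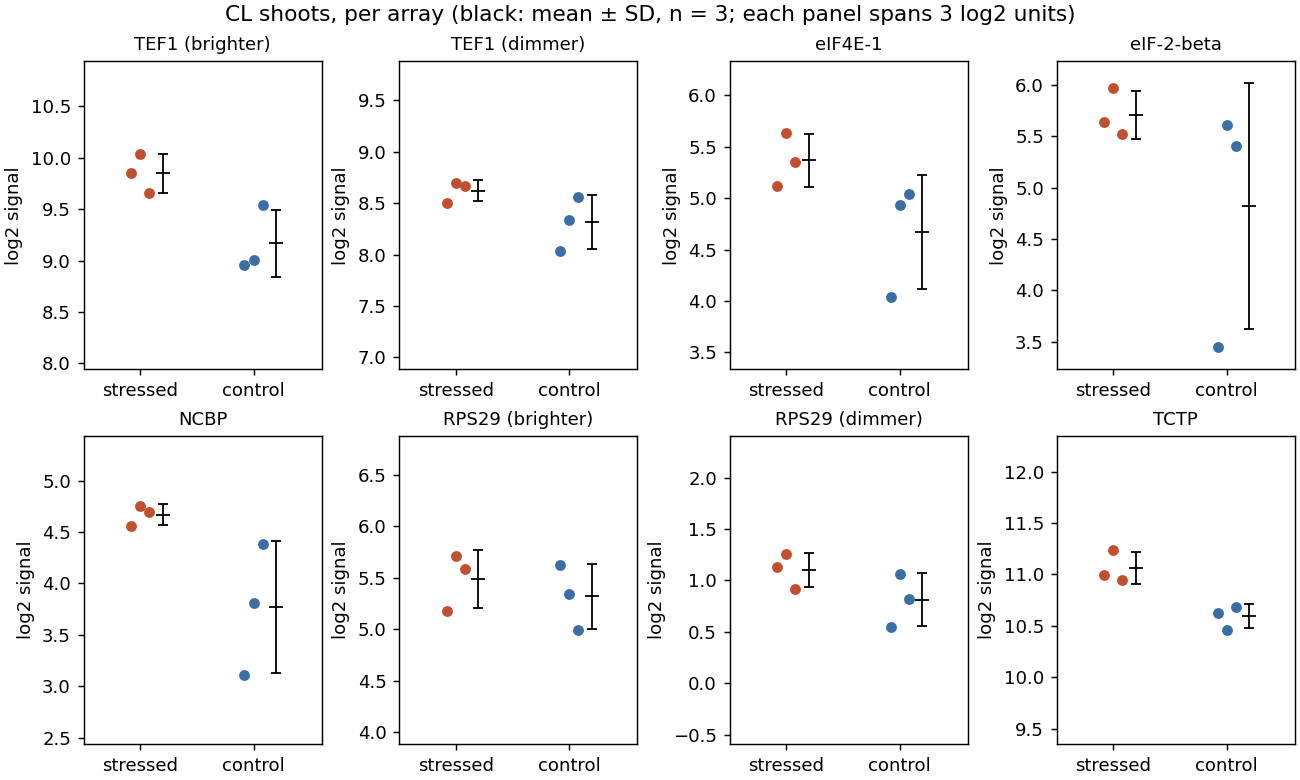
Log2 signal of the 8 probe sets in CL shoots, stressed arrays left and control arrays right, 1 panel per probe set. Points are arrays, black bars the mean ± SD of 3 arrays, and every panel spans 3 log2 units. TEF1 (brighter), TCTP, eIF4E-1 and NCBP have all stressed arrays above all controls, and eIF-2-beta has 1 control array at 3.45.

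The CL shoot calls depended on single arrays and on the fit. TCTP lost its call without CL shoot stressed 2 (adjusted p = 0.131). TEF1 lost its call without CL shoot stressed 1, stressed 2, control 1 or control 2 (adjusted p up to 0.143). CL shoots alone were taken as paired, although residuals of same-numbered arrays correlated only weakly there, at 0.115 to 0.228. With a replicate block within CL, added after results were seen, the adjusted p was 0.0239 for TEF1 and 0.0205 for TCTP. In that fit eIF4E-1 (0.0104) and NCBP (0.0303) passed as well, and 3417 of all 61179 probe sets were called. With the planned replicate block within every genotype the adjusted p was 0.0881 for TEF1 and 0.112 for TCTP, and neither passed. After quantile normalization again both calls were lost, with TEF1 at 0.50 (adjusted p = 0.0659) and TCTP at 0.28 (adjusted p = 0.145). They were lost too with no set term (adjusted p = 0.667 for TEF1 and 0.833 for TCTP) and in a fit of the 6 CL shoot arrays alone (0.305 and 0.307). From those 6 arrays the SE was 0.20 for TEF1 and 0.14 for TCTP, against 0.16 and 0.10 in the main fit. Whether CL shoots responded differently from the other genotypes was tested for all 8 probe sets, and none passed, where 0.51% of all probe sets were called, with 5 at an unadjusted p under 0.05. NCBP and TEF1 passed it without CL shoot control 3 (adjusted p = 0.0243 and 0.0206).

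**Figure D3:**
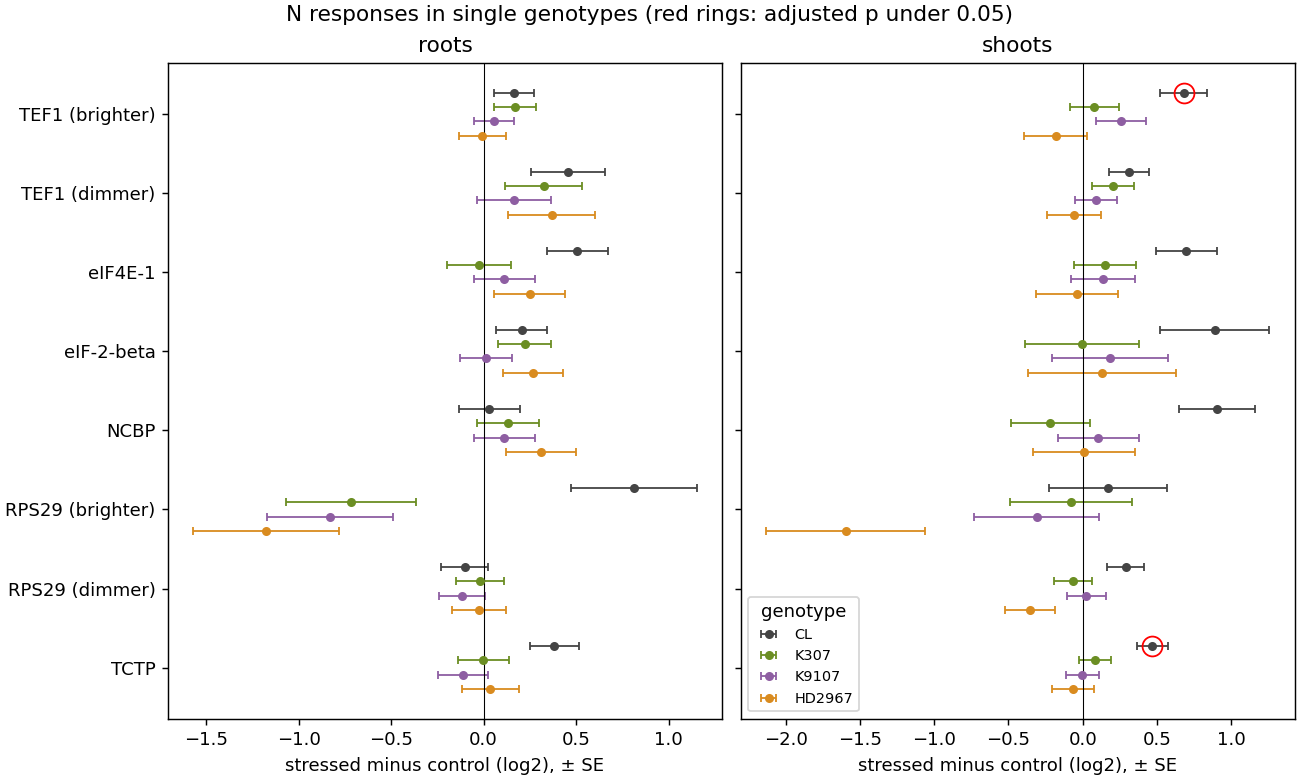
Stressed minus control difference (log2, bars ± SE) of the 8 probe sets in each genotype, roots left and shoots right. Red rings mark the 2 differences with an adjusted p under 0.05, TEF1 (brighter) and TCTP in CL shoots. The brighter RPS29 probe set is the one with root differences at 0.81 in CL and from -1.17 to -0.72 in the other genotypes.

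The second question was how levels differed between tissues. Over K307, K9107 and HD2967 and both N supplies, 4 of the 8 probe sets were higher in roots than in shoots and none was lower, where 53.1% of all probe sets were called and 32.2% were called higher. The brighter RPS29 probe set was higher by 0.97 ± 0.15 (adjusted p = 2.21e-06) and the dimmer one by 0.36 ± 0.05 (adjusted p = 7.73e-08). TCTP was higher by 0.26 ± 0.04 (adjusted p = 6.20e-06). The brighter TEF1 probe set was higher by 0.16 ± 0.05 (adjusted p = 0.00931), a call that was lost with no set term (adjusted p = 0.383). All 4 calls were made in each of the 48 fits with 1 array left out. The share called among the 8 lay near that among all probe sets.

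RPS29 and TCTP had 1 direction wherever root and shoot arrays shared a normalization set. In 14 such comparisons, which include CL, both RPS29 probe sets and TCTP were higher in roots each time. The differences ran from 0.10 to 2.18 for the brighter RPS29 probe set, from 0.13 to 0.82 for the dimmer one and from 0.06 to 0.87 for TCTP. The share of all probe sets with 1 direction in all 14 was not counted. By genotype, the brighter RPS29 probe set differed by 1.31 ± 0.27 in K307, 0.92 ± 0.27 in K9107 and 0.67 ± 0.27 in HD2967. The initiation factors did not pass over the 3 genotypes: NCBP lay at 0.12 ± 0.09, eIF4E-1 at 0.09 ± 0.07 and eIF-2-beta at 0.08 ± 0.11. The dimmer TEF1 probe set lay at -0.05 ± 0.07 (adjusted p = 0.525).

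In CL, 4 of the 8 were higher in roots, where 19.4% of all probe sets were called and 10.7% were called higher. TCTP was higher by 0.83 ± 0.08 (adjusted p = 9.70e-11), with 11.98, 11.88 and 11.68 in stressed roots against 10.99, 11.24 and 10.95 in stressed shoots. In controls TCTP read 11.74, 11.15 and 11.52 in roots against 10.63, 10.46 and 10.69 in shoots. TCTP did not overlap between CL tissues at either N supply, and how many of all probe sets were so separated was not counted. The brighter TEF1 probe set was higher by 0.52 ± 0.09 (adjusted p = 3.17e-05), and by 0.34 after quantile normalization again. The dimmer TEF1 probe set lay at -0.07 ± 0.12 (adjusted p = 0.800). The EF1a control probe sets lay at 0.04 ± 0.09, -0.03 ± 0.15 and -0.09 ± 0.12 between CL tissues. The dimmer RPS29 probe set passed at 0.63 ± 0.08 (adjusted p = 1.97e-07), but it lay at the low end of the CL scale and its difference was 1.34 after quantile normalization again, so its size is uncertain. NCBP was higher by 0.42 ± 0.15 (adjusted p = 0.0462), a call lost in 31 of the 48 fits that each leave out 1 array, 9 of them CL arrays, where the adjusted p reached 0.216. NCBP differed between CL tissues by -0.02 ± 0.21 in stressed seedlings and by 0.85 ± 0.21 in controls. With no set term only the TCTP call was made in CL.

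**Figure D4:**
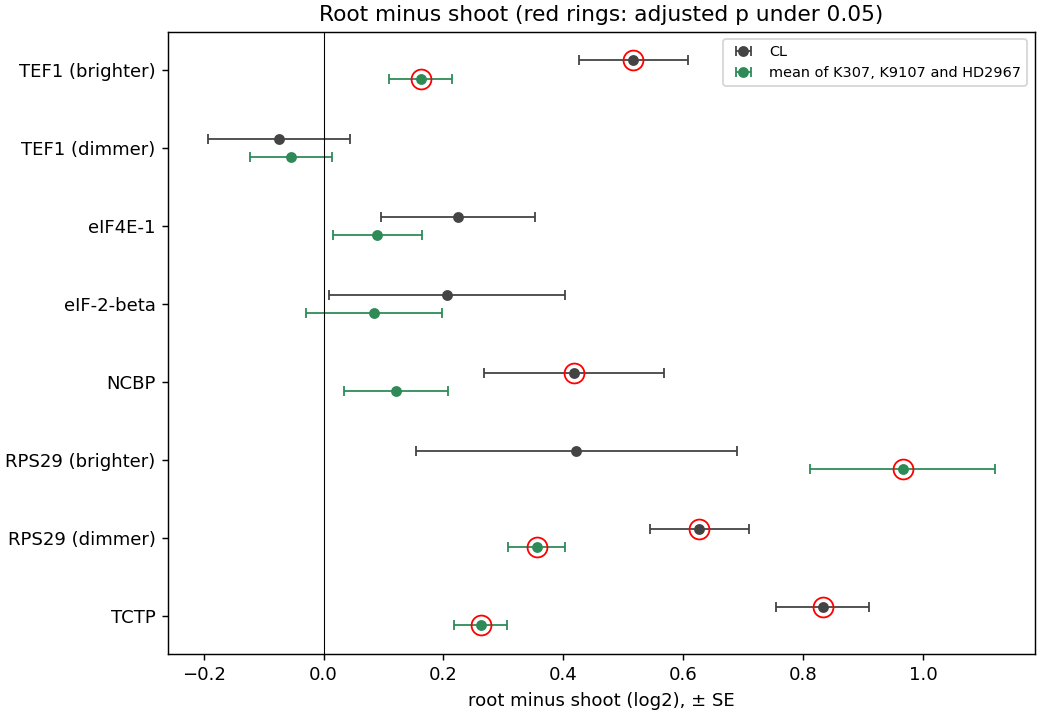
Root minus shoot difference (log2, bars ± SE) of the 8 probe sets in CL and as the mean of K307, K9107 and HD2967. Red rings mark an adjusted p under 0.05, 4 in CL and 4 in the mean of the other genotypes. Both RPS29 probe sets, TCTP and TEF1 (brighter) lie above 0 in both, and TEF1 (dimmer) lies at -0.07 and -0.05.

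The tissue labels were checked on listed marker genes. Of 36 probe sets of shoot markers, genes of photosynthesis, 24 were lower and 4 higher in roots of K307, K9107 and HD2967. Of 4 probe sets of root markers none was higher and 2 were lower in roots, so that short list did not mark the roots.

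The third question was whether the genotypes differed at a given N supply, tested over K307, K9107 and HD2967. In control shoots 1 of the 8 passed, the brighter RPS29 probe set (F-test, adjusted p = 0.00445), where 7.39% of all probe sets were called. It read 5.05, 5.35 and 6.08 in K307 control shoots and 6.27, 6.86 and 5.53 in K9107 control shoots, against 8.67, 8.35 and 7.52 in HD2967 control shoots. All HD2967 arrays lay above all arrays of the other genotypes, and how many of all probe sets were so separated was not counted. K307 lay at -2.67 ± 0.46 relative to HD2967 (adjusted p = 0.00195, where 3.42% of all probe sets were called), and K9107 at -1.91 ± 0.54 (adjusted p = 0.0821). Over arrays of K307, K9107 and HD2967 this probe set lay from 0.29 to 4.44 above the array median. Its lowest group means were those of K307 shoots, so the size of differences that involve K307 shoots is uncertain. The F-test passed in all 24 fits with 1 array left out. Within set 3, the only set that K307 and HD2967 control shoots share, K307 lay at -2.10, from 1 array against 3.

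In control roots none of the 8 passed the F-test, where 9.02% of all probe sets were called, and RPS29 came nearest (adjusted p = 0.0651, and as low as 0.0217 without CL root stressed 1 or 2, where it passed). At an unadjusted p under 0.05 limma gave 1 of the 8. K307 lay at -1.43 ± 0.39 relative to HD2967 (adjusted p = 0.0253, where 9.75% of all probe sets were called). At low N none passed in roots or in shoots, where 6.39% and 3.17% of all probe sets were called, with 1 and 0 at an unadjusted p under 0.05. RPS29 lay at -0.98 ± 0.35 in stressed K307 roots and -1.16 ± 0.45 in stressed K307 shoots relative to HD2967 (adjusted p = 0.129 and 0.383). For the other 7 probe sets the smallest adjusted p in the F-tests was 0.393, that of eIF-2-beta in control roots, and in the pairs it was 0.228, that of eIF4E-1 in control roots of K307 against HD2967.

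Over the 12 groups of K307, K9107 and HD2967, the brighter RPS29 probe set had the widest range of the 8. Its means ran from 8.61 ± 0.59 in HD2967 control roots and 8.18 ± 0.59 in HD2967 control shoots down to 5.48 ± 0.47 in K307 stressed shoots (SD, n = 3). Next after the HD2967 controls came HD2967 stressed roots (7.45 ± 0.32), K9107 control roots (7.42 ± 0.22) and K307 control roots (7.19 ± 0.36). Then came K9107 stressed roots (6.58 ± 0.18), HD2967 stressed shoots (6.54 ± 0.64) and K307 stressed roots (6.41 ± 0.39). The lowest were K9107 control shoots (6.22 ± 0.66), K9107 stressed shoots (5.95 ± 0.33) and K307 control shoots (5.49 ± 0.53). Of the 11 steps between neighbours in this order, 2 exceeded the larger SD of the neighbours, the one below HD2967 control shoots and the one below K307 control roots.

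The other probe sets spanned little. Group means of TCTP ran from 13.03 to 13.47, of the brighter TEF1 probe set from 12.33 to 12.76 and of the dimmer one from 11.77 to 12.18. eIF4E-1 ran from 9.60 to 10.03, eIF-2-beta from 9.36 to 9.70 and NCBP from 8.95 to 9.44. The dimmer RPS29 probe set ran from 5.49 to 6.09, with arrays only 0.55 to 1.41 above the array median. For eIF4E-1 and eIF-2-beta none of the 11 steps exceeded the larger SD, and for the other probe sets 1 to 3 did. Fitted without the CL arrays, the brighter RPS29 probe set also had the largest residual spread of the 8, with an SD of 0.39 in roots and 0.59 in shoots. The medians over all probe sets were 0.19 and 0.21. In those fits TCTP had an SD of 0.07 in shoots and the brighter TEF1 probe set 0.07 in roots.

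In CL, the 4 group means of the brighter RPS29 probe set were 6.23 ± 0.80 in stressed roots, 5.42 ± 0.29 in control roots, 5.49 ± 0.28 in stressed shoots and 5.32 ± 0.32 in control shoots, and no step between neighbours exceeded the larger SD. TCTP was ordered with every step beyond it: 11.85 ± 0.15 in stressed roots, 11.47 ± 0.30 in control roots, 11.06 ± 0.16 in stressed shoots and 10.59 ± 0.12 in control shoots.

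Likeness to other genes was read as the root mean square (RMS) difference between centred group means over the same 12 groups, among the other genes with an informative name. The nearest profiles to RPS29 were those of FKBP70 (RMS 0.55) and SAHH (RMS 0.62), where the median over the genes was 1.00. eIF-2-beta was nearest to NCBP (RMS 0.10), and NCBP to eIF-2-beta. The second nearest were AdSS to eIF-2-beta and TTHV to NCBP (RMS 0.11 and 0.10). eIF4E-1 was nearest to a low-molecular-weight glutenin gene (LMW-D7, RMS 0.07) and rbcl (RMS 0.09). TCTP and TEF1 were both nearest to SER1 and rbcl (RMS 0.07 to 0.09). Flat profiles lie near each other by this measure.

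Other translation genes were searched for by symbol and synonym, which found 1 more, the initiation factor gene Eif4B. Gene descriptions were not searched, so the annotation may hold others. RPL9, a ribosomal protein gene, was added after the annotation had been seen. Neither passed an N response test. Eif4B was higher in roots of K307, K9107 and HD2967 by 0.35 ± 0.13 (adjusted p = 0.0199). RPL9 was lower in roots, at -3.60 ± 0.18 in K307, K9107 and HD2967 (adjusted p = 2.05e-18) and at -4.52 ± 0.32 in CL (adjusted p = 8.48e-14), the opposite direction to RPS29. Cytosolic and organellar ribosomal proteins were not told apart, so RPL9 and RPS29 may serve different ribosomes.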

How the data were processed

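The deposited values are log2 signals of 61290 probe sets that the authors normalized with RMA, per the submitters' processing notes. The design text also names GeneSpring 14.5 and a t-test of Student's kind with a threshold of 0.1. Nothing read here states how the arrays were split for RMA. Array medians parted by over 0.1 defined 4 normalization sets. Tests covered 61179 probe sets, without 111 controls.

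The two-sided tests came from limma 3.58.1 (lmFit, contrasts.fit and eBayes, R 4.3.3), with group and normalization set as terms, in 24 arrays per tissue (14 residual degrees of freedom) or 48 arrays for roots against shoots (30). Adjustment was by Benjamini-Hochberg over all probe sets tested. Members are named whatever their values, other translation genes when called, and for likeness the 2 nearest named genes. Of 771 annotated genes, 770 were found in RefSeq's gene table, which names IWGSC CS RefSeq v2.1 as its assembly. Members, lists and tests were chosen with earlier results of these data known. The average of K307, K9107 and HD2967, the contrast of CL with it and the replicate block within CL only were added after values were seen. Apart from the averages, refits without the CL arrays were not planned either.

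Same-numbered stressed and control arrays were taken as paired in CL shoots only, from residual correlations of 0.115 to 0.228. The labels give no pairing. Elsewhere such correlations ran from -0.522 to 0.556. On simulated data, limma recovered 60 of 100 changes of 0.5 log2 units in the root average, 54 in the root average of K307, K9107 and HD2967, 5 in CL shoots and 78 in the root against shoot mean. Alternatives were no set term, the set as a random block, quantile normalization again, bright probe sets only, replicate blocks, fits without CL or with HD2967 out of the average, each genotype's 6 arrays alone, the methods' t-test and leaving out each array. The number of arrays limits the precision.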

Additional observations from a re-analysis of the deposited data

Results flagged for a closer look

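The N response of the brighter RPS29 probe set differed between CL roots and the mean of K307, K9107 and HD2967 roots, by 1.72 ± 0.40 on the log2 scale (limma adjusted p = 0.0359). The response was 0.81 ± 0.34 in CL and -0.72 ± 0.35, -0.83 ± 0.34 and -1.17 ± 0.39 in K307, K9107 and HD2967. Over the settings other than leaving out an array, the difference ran from 1.51 to 1.77 and its adjusted p from 0.0181 to 0.230. CL root stressed 2 read 5.39, within the range of the CL controls, while CL root stressed 1 and 3 read 7.00 and 6.31. CL genotype and CL normalization cannot be told apart.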

How the results depend on the processing

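Called counts are out of 8 probe sets, or 64 for single genotypes. The root average over 4 genotypes had 0 calls, and 2 without the CL arrays. Single genotypes had 2 calls: 0 with no set term, 1 after quantile normalization again (the dimmer RPS29 probe set in CL shoots, at 0.98, in place of TEF1 and TCTP), 0 with a replicate block in every genotype, 4 with the replicate block within CL only, and 1 from each genotype's 6 arrays alone, where HD2967 shoots could not be fitted. The methods' t-test gave 10 at its threshold, where 2.56% to 18.3% of all probe sets passed per contrast, and 0 after Benjamini-Hochberg; 6 of the 10 lay in HD2967 and CL shoots, where 18.3% and 16.9% passed. Root minus shoot in CL had 4 calls, and 1 with no set term. The genotype test in control roots had 0 calls, and 1 with the set as a random block, 1 with bright probe sets only and 1 without the CL arrays. The root average of K307, K9107 and HD2967 had 2 calls, 0 with no set term and 1 with the replicate block, where TEF1 had an adjusted p of 0.0839 and RPS29 of 0.0240. CL roots against the mean of the other genotypes had 1 call, 0 with no set term and 0 with the replicate block. With 1 array left out, counts ran from 0 to 1 for the root average, 0 to 0 for the shoot average, 0 to 4 for single genotypes, 0 to 1 and 0 to 0 for genotype by N in roots and shoots, 4 to 4 and 3 to 4 for root minus shoot in the 3 genotypes and in CL, 0 to 1 and 1 to 1 for genotype in control roots and shoots, and 0 to 0 for both at low N. They ran from 2 to 4 and 0 to 0 for the root and shoot averages of 3 genotypes, and from 0 to 1 and 0 to 2 for CL against the others in roots and shoots. No called difference changed sign. Of 72 alternative values of 14 called results, leave-one-out aside, 19 lost the call, and of 1024 for uncalled ones 12 gained it. The causes were not tested. Responses of 0.5 log2 units in 1 genotype are mostly below what these arrays detect: on simulated data 0 to 6 of 100 were recovered.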
